A study of Homo sapiens with 8 samples.

Results

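Receptor tyrosine kinases and the genes that restrain them were followed through a microRNA pulldown. The 10 genes were 3 receptors (EGFR, MET and AXL) and 7 inhibitors of receptor or ERK signalling (SPRY1, SPRY2, SPRY4, SPRED1, SPRED2, ERRFI1 and DUSP6). They were taken by Ensembl ID, with the symbols paired to the IDs in the definition of the gene set, and all 10 were found among the 60666 gene IDs of the table. The table itself holds no gene names. The cells were 786-0, an established human line from a clear cell renal carcinoma, in every group. They had been transfected for 48 h with a biotinylated microRNA duplex, and the RNA recovered with the biotin was sequenced. The 8 libraries comprised 3 from a control microRNA, 2 from miR-2355 and 3 from miR-1271. The design names the 5p strand of both microRNAs, the titles do not name the strand, and the sequence of the control is not given in the sources used here.

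Receptor tyrosine kinases bind a growth factor outside the cell and switch on the RAS, RAF, MEK and ERK cascade inside it. ERK signalling then raises the transcription of its own brakes. Sprouty and SPRED proteins act on the path from the receptor to RAS and RAF, DUSP6 removes the phosphates that activate ERK, and the product of ERRFI1 binds the EGFR kinase and blocks it. EGFR, MET and AXL are known for their roles in renal carcinoma, where they are studied as drug targets. A microRNA pairs with its targets mainly through its seed, bases 2 to 8. The mature sequences are shown because the 2 transfected microRNAs have different seeds, so that different RNAs can pair with each. They are RefSeq entries on GRCh38.p14, written 5′ to 3′ with the seed in capitals, and miR-96-5p is added because it has the same seed as miR-1271-5p.
miR-2355-5p: aUCCCCAGauacaauggacaa
miR-1271-5p: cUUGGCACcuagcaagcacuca
miR-96-5p: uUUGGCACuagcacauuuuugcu
An RNA pairs with the whole seed of miR-2355-5p where it holds CUGGGGA, and with that of miR-1271-5p or miR-96-5p where it holds GUGCCAA. Transcript sequences were not used here, so the members were not searched for these letters.

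Values are levels in TMM-scaled CPM, the reads of a gene relative to the scaled total of its library. They can be compared between libraries for 1 gene but not between genes, because transcript length was not corrected. No RNA from before the pulldown was used here. The libraries are bulk, so fewer cells with an RNA, less of it per cell and weaker recovery cannot be told apart. Total counts ran from 4122875 in control replicate 2 to 22864693 in control replicate 1, and the 10 genes together took 0.262% to 0.399% of the reads of a library. Of the genes kept after a filter on low counts, 12.3% were higher and 17.5% lower with miR-2355 than with the control, at an edgeR adjusted p under 0.05. With miR-1271, 17.6% were higher and 22.5% lower. Between the microRNAs, 3.50% were higher and 2.65% lower with miR-2355. The balance moved with the scaling. Higher genes made up 41.1% of the calls for miR-2355 with TMM and 52.03% with upper-quartile factors, and 43.9% against 54.6% for miR-1271, where library totals alone gave 27.95%. For the direct comparison they made up 57.0% with TMM and 82.7% with library totals. Over all genes, the median log2 fold change shifted by -0.15 for miR-1271 against control and by 0.13 for the direct comparison when library totals replaced TMM. The identity of the cells could not be checked with kidney or other cell type markers, since their IDs are not paired with names here.

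With miR-2355, 4 of the 10 genes were higher than with the control: AXL, SPRY2, SPRY4 and SPRED1. The largest difference was in SPRY4, at 7.02 times the control level, followed by SPRY2 at 1.93 times. None of the 10 was lower (0 by edgeR at the adjusted threshold, 0 at an unadjusted p under 0.05, 0 by DESeq2 and 0 by limma-voom). With miR-1271, 3 of the 10 were higher and again 0 lower by the same counts: EGFR, AXL and ERRFI1. Over all genes 17.6% were higher and 22.5% lower there. AXL was the 1 gene higher in both, and these comparisons share their control libraries. Between the microRNAs, SPRY4 was higher and ERRFI1 lower with miR-2355, 1 of 10 each way, against 3.50% and 2.65% of all genes. SPRY1 had too few reads to be tested, which left 9. Of these, SPRY4 passed the filter through the 2 miR-2355 libraries, with 1 control and 0 miR-1271 libraries at the cutoff of 0.713 CPM. The counts that include SPRY4, for miR-2355 against control and between the microRNAs, are therefore descriptions, the first to be read beside the 12.3% of all genes higher and 17.5% lower. The median log2 fold change of the 9 was 0.43 for miR-2355 and 0.29 for miR-1271, against -0.0046 and 0.0055 over all genes tested.

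**Figure D1:**
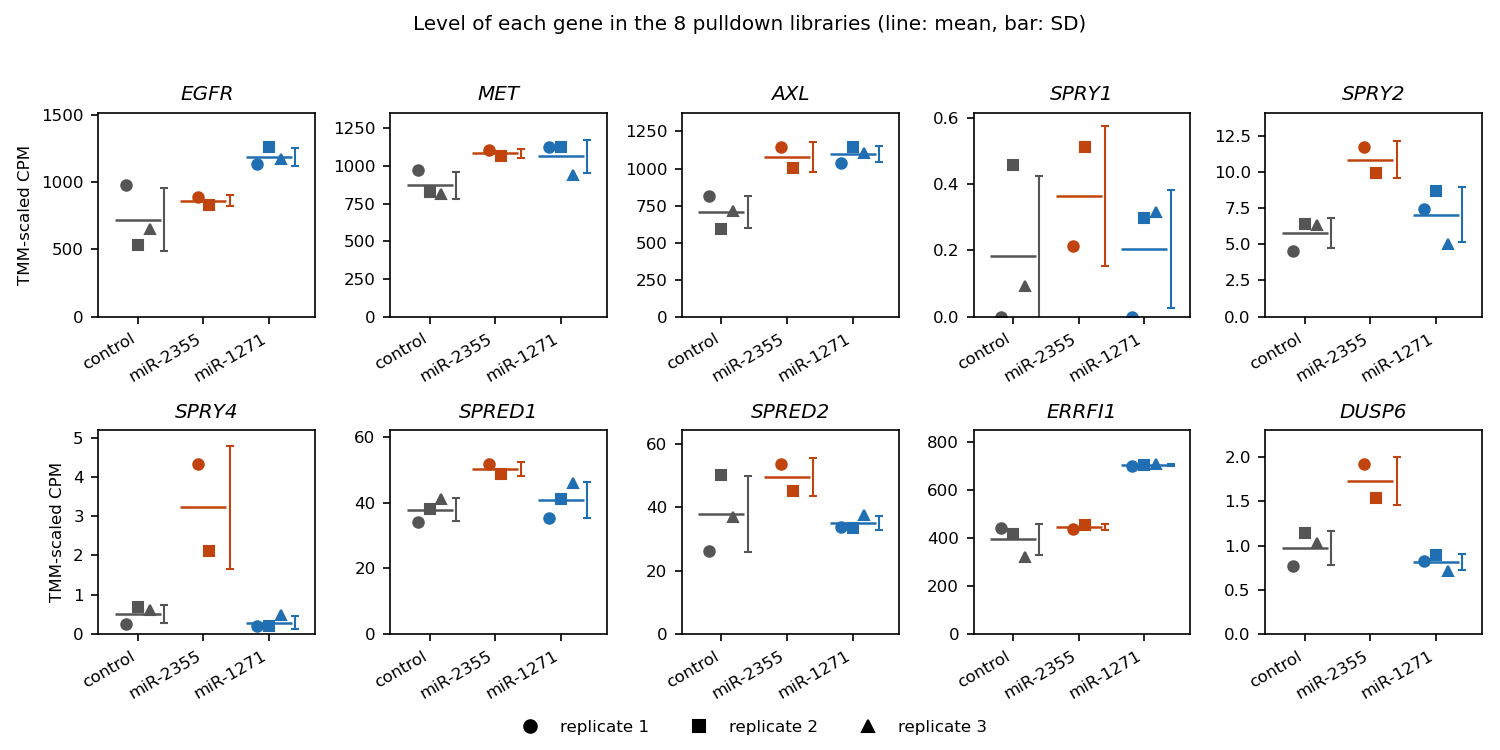
Level of each gene in TMM-scaled CPM (vertical axes, each from 0) in the control, miR-2355 and miR-1271 libraries, with 1 point per library, a line at the group mean and a bar of 1 SD. Both miR-2355 points of SPRY4 (2.12 and 4.33 CPM) lie above the other 6, and the 3 miR-1271 points of ERRFI1 (698 to 708 CPM) lie above the other 5.

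EGFR (ENSG00000146648), the receptor for epidermal growth factor, spans chr7:55019017-55211628 on the plus strand (GRCh38.p14). It stood at 981, 530.2 and 651 CPM in control replicates 1, 2 and 3, at 890.2 and 832 CPM in the miR-2355 libraries, and at 1131, 1264 and 1170.1 CPM in the miR-1271 libraries. All 3 miR-1271 libraries were above every control, while control replicate 1 lay above both miR-2355 libraries. The control mean was 721 ± 234 CPM (SD, n = 3), the miR-2355 mean 861 ± 41.4 (SD, n = 2) and the miR-1271 mean 1189 ± 68.4 (SD, n = 3). With miR-1271 the log2 fold change over control was 0.72 ± 0.18 (SE; edgeR adjusted p = 0.00502), a level 1.65 times that of the control. With miR-2355 it was 0.25 ± 0.20 and did not pass (edgeR adjusted p = 0.372). That result turned on control replicate 1: without it the log2 fold change was 0.54 and passed (edgeR adjusted p = 0.0112). The antisense gene EGFR-AS1 lies within the span of EGFR, and without a known strand setting its reads cannot be told apart from those of EGFR.

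MET (ENSG00000105976), the receptor for hepatocyte growth factor, lies at chr7:116672196-116798377 on the plus strand and overlaps the noncoding gene COMETT. Its level was 973, 827 and 816 CPM in the controls, 1104 and 1064 CPM with miR-2355, and 1125, 1129.8 and 937 CPM with miR-1271. Both miR-2355 libraries were above every control, and miR-1271 replicate 3 fell within the control range. Neither difference passed. The log2 fold change was 0.31 with miR-2355 (95% interval -0.012 to 0.64; edgeR adjusted p = 0.138) and 0.29 with miR-1271 (-0.0066 to 0.58; edgeR adjusted p = 0.111). Without control replicate 1 they were 0.40 and 0.37 and both passed (edgeR adjusted p = 0.0496 and 0.0354). DESeq2 also called both, at adjusted p of 0.0392 and 0.0303. With upper-quartile factors edgeR called the miR-1271 difference, at 0.38 (adjusted p = 0.0378).

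AXL (ENSG00000167601), a receptor of the TAM family whose ligand is GAS6, lies at chr19:41219223-41261766 on the plus strand. It stood at 813, 595 and 715 CPM in the controls, 1148 and 1004 CPM with miR-2355, and 1037, 1143 and 1108 CPM with miR-1271. Every microRNA library was above every control library. The log2 fold change was 0.60 ± 0.16 (SE) with miR-2355, an edgeR adjusted p of 0.00894, and 0.63 ± 0.14 (SE) with miR-1271, an edgeR adjusted p of 0.00242. These are levels of 1.52 and 1.55 times the control. The miR-2355 call was lost without miR-2355 replicate 1 (0.53, edgeR adjusted p = 0.0881), which leaves that group with a single library assumed to vary like the others. Between the microRNAs the log2 difference in AXL was -0.026, with a 95% interval of -0.37 to 0.31 and an edgeR adjusted p of 0.948. A difference of either sign within that interval remains possible.

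SPRY4 (ENSG00000187678) encodes a Sprouty protein and lies at chr5:142310430-142325021 on the minus strand. Its reads were few: 6, 3 and 13 in the controls, 81 and 33 with miR-2355, and 2, 2 and 6 with miR-1271. In CPM these were 0.255, 0.684 and 0.606 in the controls, 4.33 and 2.12 with miR-2355, and 0.207, 0.198 and 0.475 with miR-1271. Both miR-2355 libraries exceeded every other library, and control and miR-1271 libraries overlapped. The log2 fold change over control was 2.81 ± 0.46 (SE; edgeR adjusted p = 0.000251), the 13th largest of the 17351 genes tested. Against miR-1271 it was 3.37 ± 0.52 (SE; edgeR adjusted p = 0.00131), or 10.3 times the miR-1271 level. SPRY4 passed the filter through the miR-2355 libraries, where it is high, so these values and the rank are descriptions. With miR-1271 SPRY4 did not differ detectably from the control (log2 fold change -0.56, 95% interval -1.93 to 0.82; edgeR adjusted p = 0.52).

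The size of the SPRY4 difference varied between refits, which all reuse the same libraries. The miR-2355 libraries themselves differed, with replicate 1 at 4.33 and replicate 2 at 2.12 CPM. Without miR-2355 replicate 1 the log2 fold change over control was 2.20 (edgeR adjusted p = 0.0234) and that over miR-1271 was 2.77 (0.0304). Without miR-1271 replicate 3 the latter was 3.96 (edgeR adjusted p = 0.0055). Pooled over libraries, the ratio of read shares was 7.46 to the control (exact 95% interval 4.69 to 12.4) and 10.8 to miR-1271 (5.64 to 23.04), which covers counting error only. With all libraries thinned once, at random, to the depth of control replicate 2, SPRY4 no longer passed the filter. In an analysis at that depth without the filter, chosen after seeing the data, it was 2.09 over control (edgeR adjusted p = 0.0248) and 2.69 over miR-1271 (0.0191). The noncoding gene SPRY4-IT1 lies within the span of SPRY4, and whether any of these reads come from it was not tested.

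SPRY2 (ENSG00000136158), a second Sprouty gene, lies at chr13:80335976-80341126 on the minus strand. It stood at 4.55, 6.39 and 6.34 CPM in the controls, 11.8 and 9.94 CPM with miR-2355, and 7.45, 8.71 and 4.99 CPM with miR-1271. The miR-2355 libraries were above all others. Over control the log2 fold change was 0.95 ± 0.23 (SE; edgeR adjusted p = 0.0057), and without miR-2355 replicate 1 it was 0.84 and did not pass (edgeR adjusted p = 0.0742). With miR-1271 it was 0.32, with a 95% interval of -0.16 to 0.80 (edgeR adjusted p = 0.284). The difference between the microRNAs was 0.64 (0.15 to 1.13) and did not pass (edgeR adjusted p = 0.11). It did pass with library totals alone (0.76, edgeR adjusted p = 0.0445) and without the low-count filter (0.68, edgeR adjusted p = 0.0462).

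SPRY1 (ENSG00000164056), at chr4:123396795-123403760 on the plus strand, had 23 reads in all and was not tested. Its reads were 0, 2 and 2 in the controls, 4 and 8 with miR-2355, and 0, 3 and 4 with miR-1271. The groups overlapped in CPM. The ratio of pooled read shares was 4.32 for miR-2355 against control (exact 95% interval 1.31 to 18.4) and 2.67 for miR-1271 (0.678 to 12.4), for counting error only. Without the filter the fitted log2 fold change for miR-2355 was 1.88 and did not pass (edgeR adjusted p = 0.272).

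SPRED1 and SPRED2 encode Sprouty-related proteins, of which SPRED1 is known to bring the RAS inhibitor neurofibromin to the membrane. SPRED1 (ENSG00000166068), at chr15:38252836-38357249 on the plus strand, stood at 34.2, 38.1 and 41.2 CPM in the controls, 51.8 and 48.7 CPM with miR-2355, and 35.4, 40.98 and 46.1 CPM with miR-1271. The miR-2355 libraries were the highest, and the other groups overlapped. With miR-2355 the log2 fold change was 0.41 ± 0.14 (SE; edgeR adjusted p = 0.0338), a level 1.33 times that of the control. This call lay close to the threshold: it was lost without control replicate 1 (0.33, edgeR adjusted p = 0.0937), miR-2355 replicate 1 (0.39, 0.182) or miR-2355 replicate 2 (0.45, 0.0825). It was also lost with library totals (0.39, 0.0554), without the filter (0.42, 0.052) and at equal depth (0.41, 0.0564). With miR-1271 the log2 fold change was 0.11 (95% interval -0.16 to 0.38; edgeR adjusted p = 0.504).

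SPRED2 (ENSG00000198369), at chr2:65307175-65432599 on the minus strand, stood at 26.3, 50.2 and 37.1 CPM in the controls, 53.7 and 45.3 CPM with miR-2355, and 33.9, 33.7 and 37.5 CPM with miR-1271. Control replicate 2, the shallowest library, lay between the miR-2355 libraries. With miR-2355 the log2 fold change was 0.43 (95% interval 0.029 to 0.84) and did not pass (edgeR adjusted p = 0.0988), but without control replicate 2 it was 0.64 and passed (edgeR adjusted p = 0.0055). It also passed with upper-quartile factors (0.52, 0.0462), without the filter (0.45, 0.0357) and with limma-voom (0.52, 0.0401). Both miR-2355 libraries were above all miR-1271 libraries, with a log2 difference of 0.50 (0.098 to 0.90; edgeR adjusted p = 0.126). That difference passed without control replicate 1 (0.50, edgeR adjusted p = 0.0317) or control replicate 2 (0.50, 0.0417), although neither is part of that comparison except by way of the shared spread, filter and scaling. It also passed without the filter (0.54, edgeR adjusted p = 0.0209) and in a fit of the microRNA groups alone (0.50, 0.0156).

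DUSP6 (ENSG00000139318), the ERK phosphatase, lies at chr12:89347235-89352501 on the minus strand and overlaps a readthrough gene, POC1B-DUSP6. It had 18, 5 and 22 reads in the controls, 36 and 24 with miR-2355, and 8, 9 and 9 with miR-1271. These were 0.765, 1.14 and 1.03 CPM, then 1.92 and 1.54 CPM, then 0.828, 0.891 and 0.713 CPM. Both miR-2355 libraries lay above the other 6, as for SPRY4 and SPRY2. The log2 fold change over control was 0.90 (95% interval 0.13 to 1.67) and the difference from miR-1271 was 1.10 (0.29 to 1.92). Neither passed (edgeR adjusted p = 0.0723 and 0.0983), and the first did with upper-quartile factors (0.98, 0.0483) and limma-voom (0.91, adjusted p = 0.0492). At the depth of control replicate 2 without the filter they were 0.30 and 0.14, and neither passed (edgeR adjusted p = 0.877 for the first). These values come from a single random thinning of few reads, and how far another draw would move them was not tested.

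ERRFI1 (ENSG00000116285), also called MIG6, lies at chr1:8011727-8026309 on the minus strand. It stood at 444, 418 and 322 CPM in the controls, 437 and 455 CPM with miR-2355, and 698, 703 and 708 CPM with miR-1271. The miR-1271 libraries lay close together and above all others, and miR-2355 replicate 1 fell within the control range. Over control the log2 fold change with miR-1271 was 0.83 ± 0.14 (SE; edgeR adjusted p = 0.000164), a level 1.78 times that of the control. With miR-2355 it was 0.18 (95% interval -0.14 to 0.50; edgeR adjusted p = 0.407). The difference between the microRNAs was -0.66 ± 0.15 (SE; edgeR adjusted p = 0.0208). It was -0.62 to -0.68 without any 1 of the 5 microRNA libraries, where it did not pass: the edgeR adjusted p was 0.121 and 0.116 without miR-2355 replicates 1 and 2, and 0.0633, 0.0586 and 0.0693 without miR-1271 replicates 1, 2 and 3.

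**Figure D2:**
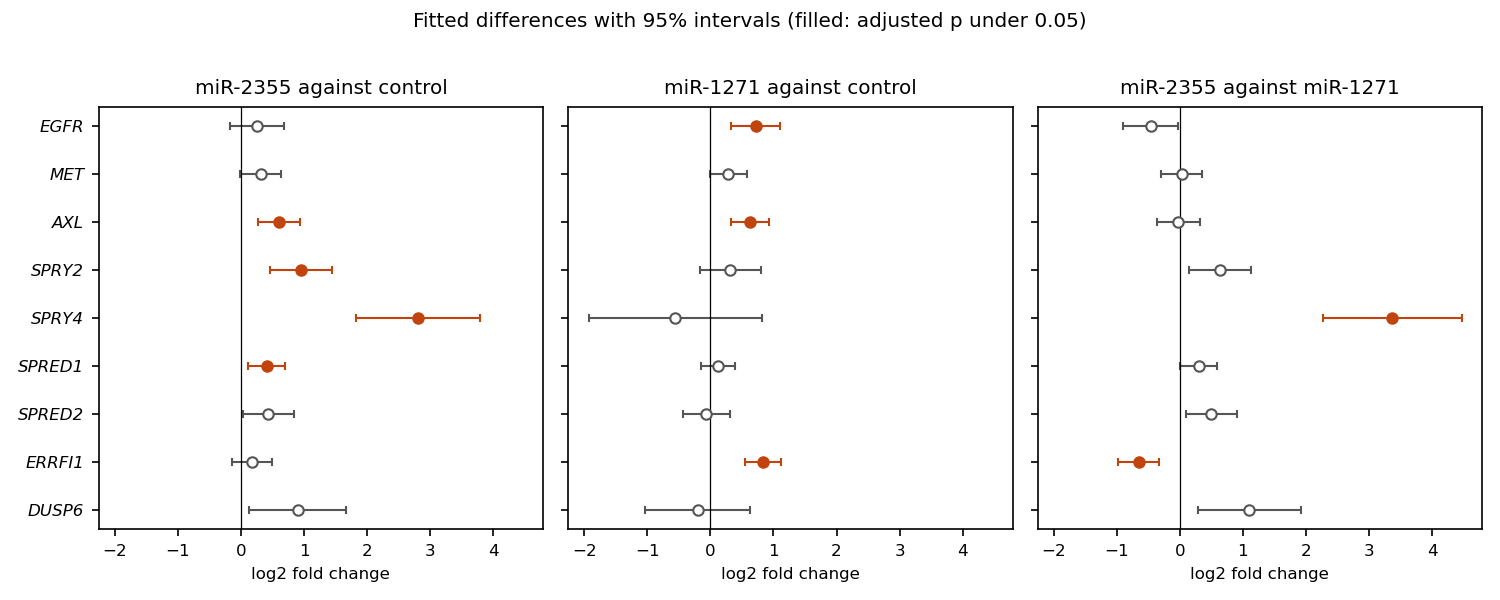
Fitted log2 fold change (horizontal axis) with its 95% interval for the 9 tested genes in the 3 comparisons, filled where the edgeR adjusted p was under 0.05. SPRY4 stands at 2.81 and 3.37 in the left and right panels, and ERRFI1 at 0.83 in the middle panel and -0.66 in the right one.

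By role, 1 of 3 receptors (AXL) and 3 of 7 inhibitors (SPRY2, SPRY4 and SPRED1) were higher with miR-2355, where 12.3% of all genes were. With miR-1271, 2 of 3 receptors (EGFR and AXL) and 1 of 7 inhibitors (ERRFI1) were higher, where 17.6% of all genes were. Of the 7 inhibitors 6 were tested, since SPRY1 was not. SPRY4 passed the filter through the miR-2355 libraries, where it is high, so the count of inhibitors for miR-2355 is a description. The receptors summed to 1952 to 2767 CPM in the controls, 2899 and 3143 CPM with miR-2355, and 3215 to 3537 CPM with miR-1271. Reads of the Sprouty, SPRED and DUSP6 genes summed to 66.1 to 97.0 CPM in the controls, 108 and 124 CPM with miR-2355, and 77.8 to 90.1 CPM with miR-1271. With ERRFI1 added, the 7 inhibitors were highest with miR-1271. They summed to 409 to 515 CPM in the controls, 561 and 564 CPM with miR-2355, and 776 to 798 CPM with miR-1271. Such sums follow the genes with the most reads and carry no test. Among the controls, control replicate 1 was highest in the sum of the receptors and lowest in the sum of the inhibitors other than ERRFI1.

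Of the 10 genes, 6 had every miR-2355 library above every control library (MET, AXL, SPRY2, SPRY4, SPRED1 and DUSP6), against 24.9% of all genes tested, and 0 had every one below, against 27.8%. For miR-1271, 3 were above (EGFR, AXL and ERRFI1), against 23.1%, and 0 below, against 26.8%. For the direct comparison 5 were above (SPRY2, SPRY4, SPRED1, SPRED2 and DUSP6), against 21.1%, and 2 below (EGFR and ERRFI1), against 20.5%. The counts that include SPRY4, which passed the filter through the miR-2355 libraries, are descriptions. EGFR was lower with miR-2355 than with miR-1271 by a log2 difference of -0.47 (95% interval -0.90 to -0.029), which did not pass (edgeR adjusted p = 0.189). It passed without control replicate 1 (-0.46, edgeR adjusted p = 0.0399) and in a fit of the microRNA groups alone (-0.47, 0.0353). Control replicate 1 enters that comparison only by way of the shared spread, filter and scaling. Without it the SE fell from 0.21 to 0.14. Over all genes, 915 were then called higher and 785 lower, against 608 and 459 with all libraries. For a single gene, an exact permutation test of 3 libraries against 3 or 2 cannot go below p = 0.1, so the calls rest on the spread shared across genes. Nothing in the labels tells whether replicates were separate cultures, so the p-values cover only the spread between the libraries sequenced, which may be technical.

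**Figure D3:**
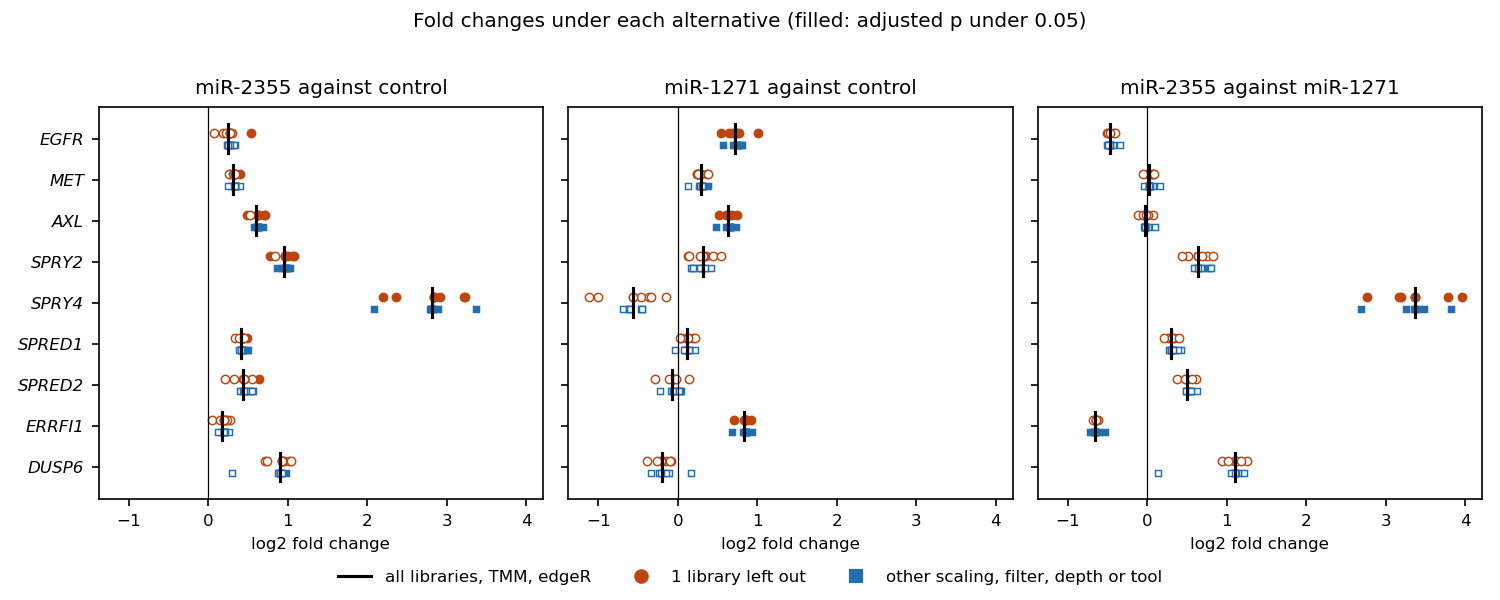
Log2 fold change of the 9 tested genes (horizontal axis) with all libraries (black line), with 1 library left out (circles) and under other scalings, filters, depths or tools (squares), filled where the adjusted p was under 0.05. Where SPRY4 had an adjusted p, its symbols are filled in the left and right panels, from 2.09 to 3.37 and from 2.69 to 3.96. The lower ends come from equal depth without the filter, a setting chosen after seeing the data. SPRY4 had no adjusted p, and is not drawn, at equal depth in either panel or with DESeq2 in the right one. The right panel shows open circles for ERRFI1 between -0.62 and -0.68.

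The profiles of the members over the 8 libraries were also set against those of 8198 other genes with a mean log2 CPM of at least 4, or 1 fewer where the member itself is among them. For the 4 members with the largest fold changes among those with a mean log2 CPM of at least 1 (SPRY2, ERRFI1, EGFR and AXL), the 2 nearest genes reached a Pearson r of 0.973 to 0.996 on log2 CPM. The nearest to SPRY2 was ENSG00000218350 (r = 0.98) and the nearest to EGFR was ENSG00000123384 (r = 0.996). The points share libraries, groups and depth, so r describes likeness over these 8 libraries and nothing more, and the table does not pair these IDs with names.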

How the data were processed

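RNA recovered in pulldowns from 786-0 cells was counted in 8 libraries. The deposited table holds unnormalized read counts by Ensembl gene ID, 1 column for each library, which the submitters' processing notes trace to BWA, featureCounts and hg38 or GRCh38. No version, annotation release or strand setting is given in the sources used here. The 10 members and the lists were chosen with earlier results of these data known. Genes were kept by filterByExpr (17351 genes, 99.8% of reads in every library), scaled by TMM and fitted with edgeR 4.0.16 in R 4.3.3. The quasi-likelihood model had 1 mean per group over all 8 libraries, and p-values were Benjamini-Hochberg adjusted over all kept genes with a threshold of 0.05. SE is the absolute log2 fold change over the square root of F. Alternatives used limma 3.58.1 and DESeq2 1.42.0, and the model was tested on simulated data. All 10 symbols matched RefSeq, and positions come from there. Of 59792 RefSeq gene rows used here, 0 carried an Ensembl ID, so the planned pathway list, cell markers and seed search were not run. Named genes were the 10 members and, by rule, the genes with the nearest profiles. No replicate pair agreed within sampling noise (chi-square per degree of freedom 6.21 to 21.2).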

Additional observations from a re-analysis of the deposited data

Results flagged for a closer look

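The levels recovered with the 2 microRNAs differed in 2 of the genes at an edgeR adjusted p under 0.05, by the direct comparison of the groups. For SPRY4 the level with miR-2355 exceeded that with miR-1271 by 3.37 on the log2 scale (edgeR adjusted p = 0.00131). Both miR-2355 libraries were above all 3 miR-1271 libraries. The SPRY4 difference rests on 114 reads in the former group and 10 in the latter. SPRY4 passed the low-count filter through the miR-2355 libraries, where it is high. Without the filter, over all genes with a read, the difference was 3.41 and passed (edgeR adjusted p = 1.52e-10, the lowest of its alternatives). The SE was 0.47 there and 0.52 with the filter, so this lower adjusted p is not stronger evidence for a difference. Without miR-2355 replicate 1 the difference was 2.77. For ERRFI1 the difference was -0.66 (edgeR adjusted p = 0.0208), with both miR-2355 libraries below all 3 miR-1271 libraries, and it did not pass without any 1 of those 5 libraries (adjusted p 0.0586 to 0.121).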

How the results depend on the processing

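Genes called higher with miR-2355 than with the control numbered 4. There were 6 with upper-quartile factors and with limma-voom, 5 with DESeq2, 3 with library totals, and 2 at equal depth, where SPRY4 no longer passed the filter and SPRED1 missed the threshold. On leaving out 1 library they numbered 1 to 5. The share of all genes called higher moved as well. It was 12.3% in the main fit, 16.3% with upper-quartile factors, 13.2% with limma-voom and 13.7% with DESeq2. With library totals it was 10.9%, and at equal depth 12.3%. In the direct comparison 1 member was higher with miR-2355. There were 2 with library totals and in the fit of the compared groups alone, 3 without the filter, and 0 with DESeq2 and at equal depth, where SPRY4 had no adjusted p, and 1 to 2 on leaving out 1 library. Lower with miR-2355 was 1, against 2 in the fit of the compared groups alone and 0 to 2 on leaving out 1 library. Of all genes, the direct comparison had 3.50% higher in the main fit, 7.22% with library totals and 5.89% with the compared groups alone. The share was 2.45% without the filter, 4.75% with DESeq2 and 3.11% at equal depth. Lower were 2.65% in the main fit and 5.48% with the compared groups alone. With miR-1271 the count of members higher than with the control was 3 to 4 on leaving out 1 library. Values that changed sign were never past the threshold. For miR-1271 against control, SPRED2 (-0.066) was 0.036 with upper-quartile factors, 0.027 with limma-voom, 0.015 at equal depth, 0.014 at equal depth without the filter and -0.29 to 0.14 on leaving out 1 library. SPRED1 (0.11) was -0.033 with library totals, and DUSP6 (-0.20) was 0.16 at equal depth without the filter. Between the microRNAs, AXL (-0.026) was 0.098 with library totals, 0.014 without the filter and -0.12 to 0.070 on leaving out 1 library. MET (0.027) was -0.037 with the replicate block and -0.051 to 0.081 on leaving out 1 library. The cause of these changes was not tested. The 7 pairs of libraries with the same number in their titles had correlations of -0.10 to 0.019, and 0 of 8 libraries correlated best with its own number. These are correlations of deviations from group means, which force the 2 miR-2355 libraries to mirror each other. Control replicate 1, for example, had -0.015 with the first and 0.015 with the second. The check therefore cannot tell whether same-numbered libraries were paired. With the replicate block, 4, 3 and 1 genes were higher and 0, 0 and 1 lower in the 3 comparisons. Over all genes, calls with miR-2355 numbered 2127 higher and 3044 lower, but 760 and 1569 without miR-2355 replicate 1. With miR-1271, 3062 were higher, but 1896 with library totals. Between the microRNAs they numbered 608 and 459, and ranged from 154 to 1252 and from 70 to 902. Alternatives planned for the pathway list were not run.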
